A study of Mus musculus with 9 samples.

Results

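The genes for proteins of the mitochondrial ribosome were followed in mouse heart muscle cells that overexpressed the long noncoding RNA Firre. Members were the protein-coding genes whose symbol begins with Mrpl or Mrps and then a digit. These are the usual names for proteins of the large and the small subunit. The rule reads names alone, but it was chosen with earlier results of these data known. The rule found 78 genes of the 55487 in the count table. Of these, 51 code for proteins of the large subunit and 26 for proteins of the small subunit. The other one, Mrps36, keeps its ribosomal name but codes for a subunit of the alpha-ketoglutarate dehydrogenase complex of the citric acid cycle. Mrps30 and Mrps18a carry small-subunit names and were counted with the large subunit, where their proteins sit. In the assignment used here, 47 members were counted as having a bacterial homologue and 30 as specific to mitochondria. Of the Mrps18 paralogues, Mrps18a and Mrps18c were counted with the former and Mrps18b with the latter, a choice that other assignments may not share. The members lie on 17 chromosomes, so they do not form a single cluster in the genome.

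Mitochondria keep a small genome of their own that codes for core subunits of the respiratory chain, and a dedicated ribosome translates those messages. Its ribosomal RNAs come from the mitochondrial genome, whereas all of its proteins are coded in the nucleus, made in the cytosol and imported. Heart muscle depends on oxidative phosphorylation, and inherited defects of several mitochondrial ribosomal proteins cause cardiomyopathy in people.

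The series holds 9 RNA-seq libraries of cardiomyocytes isolated from mice, 3 in each of 3 groups. AAV9, a viral gene carrier with a strong preference for the heart, brought in Firre in the overexpression group (AAV9-Firre) and a control cargo in the negative control (AAV9-VC). Of the blank control (NC) the labels say no more than that it is a blank. The labels do not give strain, age, sex, vector dose, promoter or time after infection, nor whether the 3 biological replicates of a group were separate animals or cultures. The p-values below therefore measure only the spread between these libraries, which may be technical.

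Counts assigned to genes ranged from 15591542 to 22697016 per library. Firre itself stood at 30.2 to 37.2 CPM (counts scaled to a common library size with edgeR's TMM factors) in the 6 control libraries and at 62.6 to 69.7 CPM in the 3 Firre libraries. Its log2 fold change against the negative control was 0.97 ± 0.07 (SE, edgeR quasi-likelihood test, Benjamini-Hochberg adjusted p = 4.74e-13). The 10 cardiomyocyte markers were all detected in every group, and markers of other heart cells were present too, as described with the results they accompany.

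Of the 78 members, 77 passed the low-count filter and were tested, and each of these had at least 70 counts in every library, so none entered through a single group. The remaining gene, Mrpl53, had 0 counts in all 9 libraries, which allows up to 0.135 to 0.191 CPM depending on the library (3 counts of the total, counting error only). In the annotation Mrpl53 lies wholly inside Gm42688 on the same strand, and Gm42688 was read at 0.20 to 1.15 CPM. The level of Mrpl53 was therefore not readable from these counts.

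Start sites of 6 members are shown because the results below turn on them: the member with the highest fold change and the one with the smallest p (Mrpl47, Mrpl42), the member that fell (Mrpl17), and 3 members with a neighbour that begins close by on the other strand (Mrpl51, Mrpl57, Mrps27). Each run covers 250 bases before to 50 bases after the RefSeq start on the GRCm38.p6 build, is written 5′ to 3′ on the gene's strand, and has in capitals the letters of the NRF1, ETS or YY1 motifs that are given further on. The GENCODE starts, used further on for distances between neighbours, can differ from the RefSeq starts. For Mrpl47 and Mrpl51 the GENCODE start lies outside the window shown, and the start of Ncapd2, the neighbour of Mrpl51, does too.
Mrpl47, chr3:32736706-32737005, minus strand: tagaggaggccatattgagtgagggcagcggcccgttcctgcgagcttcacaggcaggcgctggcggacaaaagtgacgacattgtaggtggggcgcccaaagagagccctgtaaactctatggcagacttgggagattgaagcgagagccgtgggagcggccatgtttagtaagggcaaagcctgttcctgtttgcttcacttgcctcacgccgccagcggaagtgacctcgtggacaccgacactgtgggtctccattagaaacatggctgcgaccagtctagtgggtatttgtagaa
Mrpl42, chr10:95501900-95502199, minus strand: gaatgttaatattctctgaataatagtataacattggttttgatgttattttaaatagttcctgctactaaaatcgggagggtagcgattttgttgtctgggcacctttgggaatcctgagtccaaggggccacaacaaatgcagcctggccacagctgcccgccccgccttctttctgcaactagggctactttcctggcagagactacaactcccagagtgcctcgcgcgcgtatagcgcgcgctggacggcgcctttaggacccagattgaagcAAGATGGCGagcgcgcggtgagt
Mrpl17, chr7:105811038-105811337, minus strand: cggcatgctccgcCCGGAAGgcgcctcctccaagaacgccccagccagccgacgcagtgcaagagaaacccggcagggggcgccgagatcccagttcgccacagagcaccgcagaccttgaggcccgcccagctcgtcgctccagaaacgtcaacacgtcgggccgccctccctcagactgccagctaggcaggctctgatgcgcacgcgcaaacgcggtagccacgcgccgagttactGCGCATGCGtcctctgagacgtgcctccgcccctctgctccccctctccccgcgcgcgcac
Mrpl51, chr6:125191950-125192249, plus strand: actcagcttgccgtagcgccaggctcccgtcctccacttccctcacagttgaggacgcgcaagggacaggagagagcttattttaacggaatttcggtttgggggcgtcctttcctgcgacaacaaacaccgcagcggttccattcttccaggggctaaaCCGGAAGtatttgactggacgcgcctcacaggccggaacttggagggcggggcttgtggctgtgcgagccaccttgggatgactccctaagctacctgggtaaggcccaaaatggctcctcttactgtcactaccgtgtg
Mrpl57, chr14:57825989-57826288, plus strand: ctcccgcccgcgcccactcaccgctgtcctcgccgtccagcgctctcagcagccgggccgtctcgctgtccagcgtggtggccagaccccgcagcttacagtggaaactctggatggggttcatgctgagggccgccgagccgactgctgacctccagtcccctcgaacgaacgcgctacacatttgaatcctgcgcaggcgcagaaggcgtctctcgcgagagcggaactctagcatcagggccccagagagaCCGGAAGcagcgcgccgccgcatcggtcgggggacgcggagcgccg
Mrps27, chr13:99344536-99344835, plus strand: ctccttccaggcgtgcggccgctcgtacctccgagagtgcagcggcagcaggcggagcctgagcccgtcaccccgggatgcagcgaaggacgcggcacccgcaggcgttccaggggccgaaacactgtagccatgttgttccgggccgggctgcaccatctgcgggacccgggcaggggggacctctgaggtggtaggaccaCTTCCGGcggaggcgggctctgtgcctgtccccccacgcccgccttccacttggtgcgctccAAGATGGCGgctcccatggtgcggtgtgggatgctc

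Firre overexpression was accompanied by a broad, moderate rise of the mitochondrial ribosomal protein genes. Against the negative control, 64 of the 77 tested members were higher and 1 was lower, with 12 not called (adjusted p not under 0.05). Of all 15633 genes tested, 27.5% were called higher and 28.4% lower in the same comparison. The median log2 fold change of the members was 0.40, a 1.32-fold difference, where the median over all genes was 0.00. The members' values ran from -0.31 to 1.04, and 75 of 77 were above 0. The rise was shallow for most: 24 of the called members reached 0.5 on the log2 scale and 1 reached 1. Members differed among themselves: the SD of the 77 fold changes was 0.22, where the median standard error of a member was 0.07.

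Summed over members, expression was 2644, 2532 and 2711 CPM in the blank control libraries, 2525, 2415 and 2538 CPM in the negative control libraries and 3304, 3367 and 3352 CPM in the Firre libraries. The 3 Firre libraries lay above all 6 control libraries, 1.34-fold above the negative control in the mean. As a share of all assigned counts the members took 0.246% to 0.273% of a control library and 0.322% to 0.329% of a Firre library. For 56 of the 77 members every Firre library was above all 6 control libraries, and for 2 every Firre library was below them. Of all 15633 genes tested, 4014 (25.7%) had every Firre library above all 6 controls, and 4164 had every Firre library below them. Each library's typical member can be read from its median deviation from the gene's mean over the 9 libraries, which was -0.13 to -0.04 in the blank control, -0.19 to -0.15 in the negative control and 0.24 to 0.27 in the Firre group (log2 scale). The ranges of the Firre group and of the controls did not overlap.

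**Figure D1:**
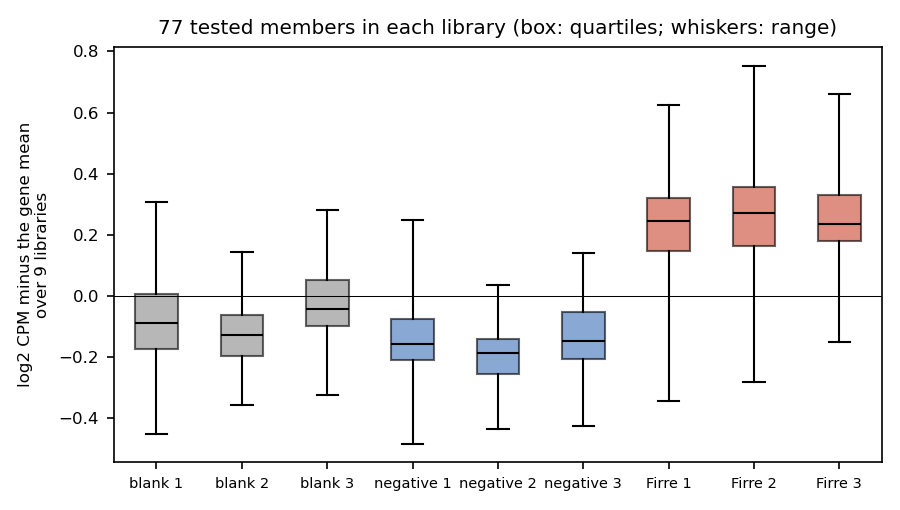
Boxes show, for each of the 9 libraries, the 77 tested members' log2 CPM minus each gene's mean over the 9 libraries (box, quartiles; line, median; whiskers, range). The medians of the 3 Firre libraries lie at 0.24 to 0.27 and those of the 6 control libraries between -0.19 and -0.04.

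The cell markers changed with the groups as well. All 10 cardiomyocyte markers were higher in the Firre group than in the negative control (median log2 fold change 0.71), and their summed level was 34223 to 37057 CPM in the control libraries and 52134 to 55268 CPM in the Firre libraries. All 9 fibroblast markers were lower (median -1.07), from 6887 to 7273 CPM in controls to 3396 to 3749 CPM. All 8 endothelial markers (median -1.38, from 749 to 844 CPM down to 272 to 285 CPM) and all 7 smooth muscle and pericyte markers (median -1.28, from 2835 to 3363 CPM down to 1413 to 1558 CPM) were lower too. So were all 12 macrophage markers (median -4.78, from 90.0 to 128 CPM down to 13.8 to 17.0 CPM, with C1qa at 0 in all 3 Firre libraries) and all 6 epicardial markers (median -2.42, from 260 to 318 CPM down to 56.6 to 62.5 CPM). In such bulk samples fewer cells of a type and less RNA per cell cannot be told apart, and the part of this shift in the rise of the members was not tested.

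Members of both subunits rose, and the counts here stand beside 27.5% higher and 28.4% lower over all genes tested. In the large subunit 42 of 50 tested members were higher and 1 lower (median log2 fold change 0.38), and the summed level was 1679 to 1764 CPM in the negative control against 2299 to 2353 CPM in the Firre group. In the small subunit 21 of 26 were higher and 5 not called (median 0.40), from 705 to 736 CPM to 953 to 962 CPM. Members with a bacterial homologue were higher in 40 of 47 cases (median 0.38), and mitochondria-specific members in 23 of 29 (median 0.45). The 10 mitochondria-specific proteins of the small subunit had a median of 0.49 with 8 higher, and the 16 small-subunit proteins with a bacterial homologue a median of 0.32 with 13 higher. Differences between these classes were not tested.

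**Figure D2:**
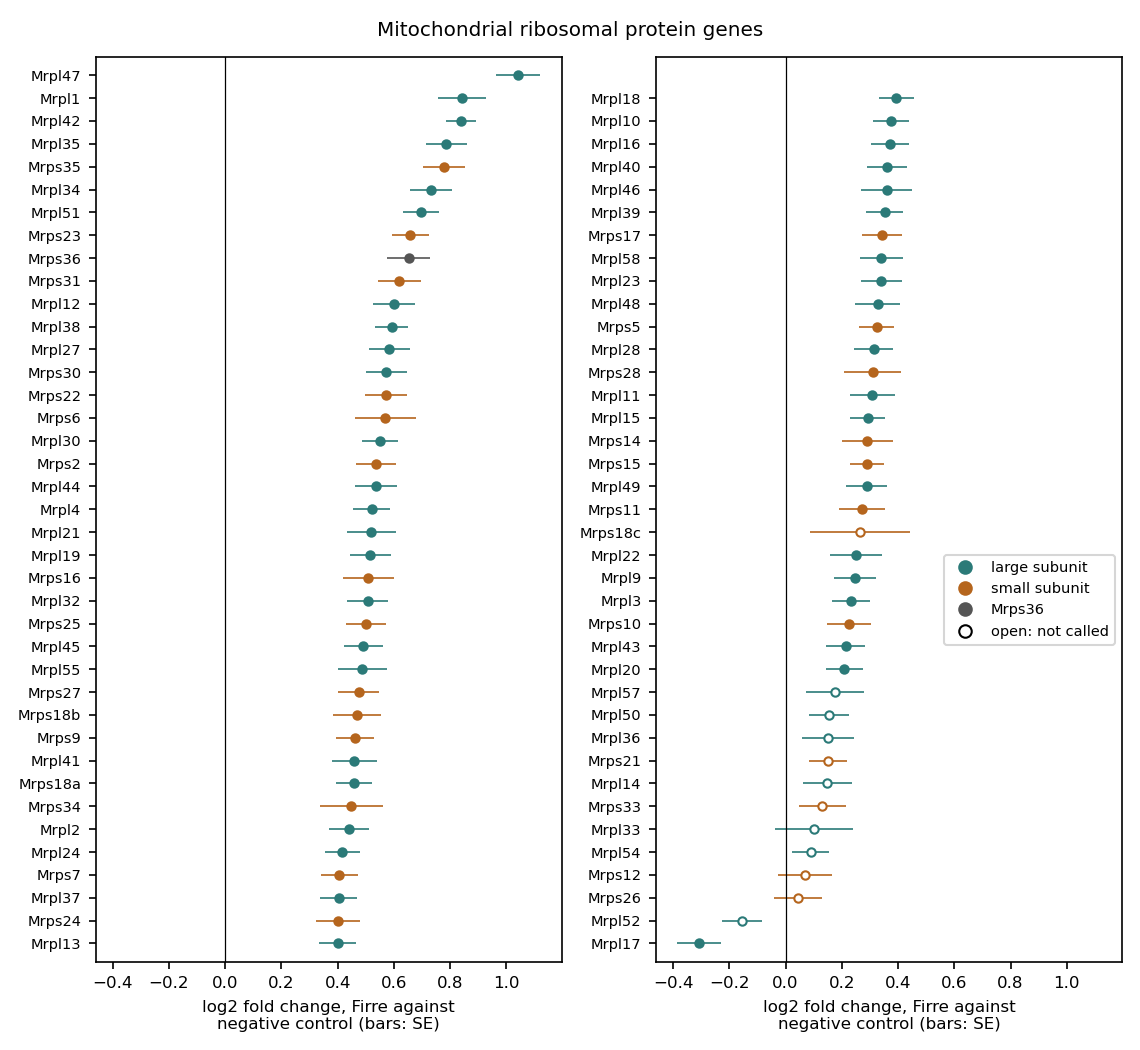
Log2 fold change of each of the 77 tested members, Firre against negative control, with the standard error as a bar, ordered by size and coloured by subunit. Filled points are the 65 members called by edgeR (64 higher, Mrpl17 lower) and open points the 12 not called.

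Among proteins of the large subunit, Mrpl47 had the highest fold change. It codes for the counterpart of a bacterial protein near the exit of the peptide tunnel, and its gene (ENSMUSG00000037531) spans chr3:32725397-32737605 on the minus strand of GRCm38. Mrpl47 was at 16.3, 16.2 and 16.4 CPM in the blank control, 16.1, 16.3 and 15.2 CPM in the negative control, against 31.4, 34.3 and 32.2 CPM in the Firre libraries. Every Firre library was far above every control library, with no overlap. The log2 fold change was 1.04 ± 0.08 (SE, adjusted p = 1.47e-12, edgeR), a 2.06-fold difference, and it stayed between 1.01 and 1.07 whichever library was left out. Mrpl47 overlaps Actl6a and Ndufb5, both on the other strand. Actl6a was read at 29.3 to 37.6 CPM over all libraries and had a log2 fold change of -0.24. Ndufb5 was at 94.9 CPM in the negative control and 147 CPM in the Firre group in the mean (0.63), above Mrpl47 in both. Whether the counting used strand is not stated, and a part of reads from these genes in the Mrpl47 count was not tested.

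Mrpl42, a mitochondria-specific protein of the large subunit, was at 95.8, 88.6 and 93.2 CPM in the blank control, 81.5, 85.5 and 86.9 CPM in the negative control, and from 147 to 160 CPM in the Firre libraries. The log2 fold change was 0.84 ± 0.05 (adjusted p = 2.50e-14, edgeR), the smallest adjusted p of any member. Mrpl1 codes for the protein of the mobile stalk beside the site where spent tRNA leaves. It stood at 18.0, 22.3 and 18.5 CPM in the blank control, 18.0, 18.7 and 19.6 CPM in the negative control, against 33.5, 31.5 and 36.2 CPM in the Firre group, a log2 fold change of 0.84 ± 0.09 (adjusted p = 8.23e-10). Neither gene's Firre libraries overlapped with the controls.

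The next large-subunit genes kept the same pattern. Mrpl35 rose from 25.7, 26.9 and 24.4 CPM in the negative control to 43.6, 42.7 and 46.8 CPM (log2 fold change 0.79 ± 0.07, adjusted p = 1.19e-10). Mrpl34 rose from 36.6, 31.3 and 32.9 CPM to 51.7, 58.2 and 57.2 CPM (0.73 ± 0.07, adjusted p = 9.13e-10). Both code for counterparts of small bacterial large-subunit proteins. Mrpl51, which is mitochondria-specific, rose from 52.7, 48.2 and 49.6 CPM to 79.2, 82.4 and 82.4 CPM (0.70 ± 0.06, adjusted p = 7.75e-11). In the blank control these genes were at 25.5 to 29.6, 29.8 to 36.2 and 47.2 to 57.0 CPM, so each Firre library lay above all 6 controls.

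**Figure D3:**
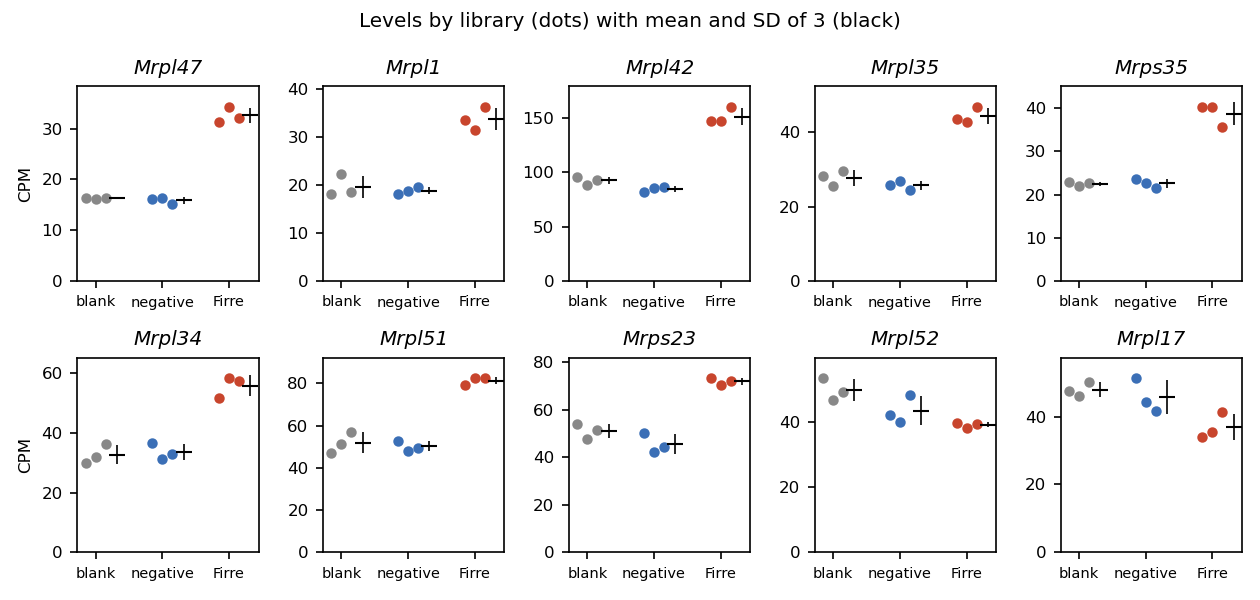
CPM of the 8 members with the highest log2 fold changes among called ribosomal proteins, and of Mrpl52 and Mrpl17, in each library (dots) with the mean and SD of 3 libraries (black). For the first 8 genes each Firre library lies above all 6 controls, and for Mrpl52 and Mrpl17 each lies below all 6.

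Members with a known part beside the core structure were followed by name. Mrpl12, the counterpart of the bacterial stalk protein that recruits translation factors, has also been described as binding the mitochondrial RNA polymerase. It was at 102, 82.6 and 86.5 CPM in the blank control, 81.5, 70.1 and 85.4 CPM in the negative control, against 118, 122 and 119 CPM in the Firre group (log2 fold change 0.60 ± 0.07, adjusted p = 9.11e-07). The Firre libraries agreed closely and lay above the controls, which varied more. Mrpl45, which anchors the ribosome to the inner membrane, rose from 38.9 to 42.1 CPM in the negative control to 54.1 to 59.6 CPM (0.49 ± 0.07, adjusted p = 3.95e-07). Mrpl44, a protein with a ribonuclease-like fold whose defects cause cardiomyopathy in infants, rose from 22.0 to 25.1 CPM to 33.4 to 33.6 CPM (0.54 ± 0.07, adjusted p = 3.80e-07).

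Mrpl58, a ribosomal protein with peptidyl-tRNA hydrolase activity that frees stalled chains, rose less, from 29.9 to 30.1 CPM to 36.2 to 40.6 CPM (log2 fold change 0.34 ± 0.08, adjusted p = 4.06e-04). Mrpl3, which reaches towards the peptidyl transferase centre, rose by the smallest amount of these genes, from 31.4 to 32.8 CPM to 36.0 to 39.8 CPM (0.23 ± 0.07, adjusted p = 0.00478). Mrps30, a large-subunit protein despite its name, rose from 32.1 to 33.7 CPM to 46.4 to 52.9 CPM (0.57 ± 0.07, adjusted p = 7.24e-08). 

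The other large-subunit members that rose did so by degrees. Above 0.5 on the log2 scale were Mrpl38 (0.59), Mrpl27 (0.58), Mrpl30 (0.55), Mrpl4 (0.52), Mrpl21 (0.52), Mrpl19 (0.52) and Mrpl32 (0.51). Mrpl38 went from 62.7, 59.8 and 60.2 CPM in the negative control to 85.9, 97.5 and 91.7 CPM, and Mrpl30 from 58.6, 52.2 and 55.5 CPM to 76.7, 82.9 and 83.8 CPM. In all 7 of these genes each Firre library was above all 6 controls. Mrpl10, which holds the stalk protein of Mrpl12 on the ribosome, rose by 0.38 ± 0.06 from 42.4, 42.0 and 45.0 CPM to 56.7, 58.4 and 52.6 CPM. Of the rest, Mrpl55, Mrpl41, Mrps18a, Mrpl2, Mrpl24, Mrpl37, Mrpl13, Mrpl18, Mrpl16, Mrpl40, Mrpl46, Mrpl39, Mrpl23, Mrpl48, Mrpl28 and Mrpl11 lay between 0.31 and 0.49. Mrpl15 and Mrpl49 (both 0.29), Mrpl22, Mrpl9, Mrpl43 and Mrpl20 (0.21 to 0.25) had the smallest called rises beside Mrpl3. Mrpl22, in which the Firre libraries were at 19.4 to 22.4 CPM and the negative control at 15.9 to 18.7 CPM, stood nearest the threshold among called members (adjusted p = 0.0241).

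In the small subunit the highest values were those of 2 mitochondria-specific proteins. Mrps35 was at 22.8, 21.9 and 22.7 CPM in the blank control, 23.6, 22.7 and 21.6 CPM in the negative control, against 40.3, 40.2 and 35.7 CPM in the Firre libraries (log2 fold change 0.78 ± 0.07, adjusted p = 2.39e-10). Mrps23 was at 53.8, 47.7 and 51.5 CPM, then 50.2, 42.3 and 44.1 CPM, then 73.1, 70.3 and 72.0 CPM in the same order of groups (0.66 ± 0.06, adjusted p = 4.36e-10). Both were higher in every Firre library than in any control. Mrps22, a gene mutated in some infants with cardiomyopathy, rose from 23.4, 24.7 and 24.7 CPM to 35.4, 34.5 and 38.5 CPM (0.57 ± 0.07, adjusted p = 7.87e-08).

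The other small-subunit members that rose were spread over the same range. Mrps31 (0.62), Mrps6 (0.57), Mrps2 (0.54) and Mrps16 (0.51) passed 0.5 on the log2 scale, and Mrps25 lay just under it. Mrps31 was at 19.5, 18.2 and 19.6 CPM in the negative control, against 29.4, 29.3 and 29.2 CPM in the Firre libraries, which were almost alike. Mrps27, Mrps9, Mrps34, Mrps7 and Mrps24 lay between 0.40 and 0.48, and Mrps17, Mrps5 and Mrps28 between 0.31 and 0.34. Mrps14, Mrps15, Mrps11 and Mrps10 had the smallest called rises, 0.23 to 0.29. Mrps28, Mrps14 and Mrps11 were called although a Firre library of each lay within the range of the controls.

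Mrps12, the counterpart of the bacterial protein at the decoding centre, was not called. It was at 21.6, 17.6 and 21.0 CPM in the blank control, 21.6, 17.2 and 20.2 CPM in the negative control, against 18.6, 22.4 and 20.8 CPM in the Firre group, and the groups overlapped (log2 fold change 0.07 ± 0.10, adjusted p = 0.571). The sign of that value turned to -0.02 without the second negative control library. The 4 other small-subunit members not called were Mrps18c, Mrps21, Mrps26 and Mrps33, with values from 0.05 to 0.26.

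The 3 Mrps18 paralogues sit at different places of the ribosome. Mrps18a, placed in the large subunit, was at 38.9 to 42.9 CPM in the negative control and 53.8 to 58.8 CPM in the Firre group (log2 fold change 0.46 ± 0.06, adjusted p = 3.30e-07). Mrps18b of the small subunit was at 24.9 to 31.6 CPM and 37.9 to 39.6 CPM (0.47 ± 0.09, adjusted p = 3.42e-05). Mrps18c, also of the small subunit, was the tested member with the lowest CPM, at 3.80, 3.76 and 3.57 CPM in the negative control, against 5.06, 3.48 and 4.91 CPM in the Firre group. Its groups overlapped and its value of 0.26 ± 0.18 was not called (adjusted p = 0.207), with the widest standard error of the tested members. A difference between the paralogues' fold changes was not tested.

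Mrps36, the alpha-ketoglutarate dehydrogenase subunit with a ribosomal name, rose like its namesakes. It was at 41.2, 33.1 and 38.1 CPM in the blank control, 33.8, 30.9 and 37.6 CPM in the negative control, against 51.6, 52.7 and 56.2 CPM in the Firre libraries (log2 fold change 0.65 ± 0.08, adjusted p = 2.12e-08).

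Mrpl17 was the only tested member called lower against the negative control by edgeR's test. It codes for the counterpart of a bacterial protein near the tunnel exit, and its gene (ENSMUSG00000030879) spans chr7:105803206-105811099 on the minus strand of GRCm38. It was at 47.6, 45.9 and 50.2 CPM in the blank control, 51.2, 44.2 and 41.6 CPM in the negative control, against 34.0, 35.5 and 41.3 CPM in the Firre group. The lowest control library (41.6) and the highest Firre library (41.3) nearly met. The log2 fold change was -0.31 ± 0.08 (adjusted p = 0.00138), and it was -0.22 to -0.39 with single libraries left out, called each time. In the annotation the gene lies within Gm15645, an antisense pseudogene read at no more than 0.13 CPM in any library.

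Mrpl52, a mitochondria-specific large-subunit protein, was at 53.4, 46.7 and 49.1 CPM in the blank control, 42.2, 40.0 and 48.3 CPM in the negative control, against 39.6, 38.2 and 39.4 CPM in the Firre libraries. Each Firre library lay below all 6 controls, yet the value against the negative control was not called (log2 fold change -0.15 ± 0.07, adjusted p = 0.0645). With library totals in place of TMM factors, or without the second negative control library, the number of members called lower was 2 instead of 1. The large-subunit members with positive values that were not called were Mrpl14, Mrpl33, Mrpl36, Mrpl50, Mrpl54 and Mrpl57, at 0.09 to 0.18.

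Against the blank control, 58 of 77 members were higher and 2 lower, Mrpl17 (-0.38) and Mrpl52 (-0.35, adjusted p = 1.18e-04), with a median log2 fold change of 0.32. Of all genes tested, 27.3% were higher and 28.9% lower. Both comparisons share the Firre libraries and so are not independent. In both, 57 members were called higher. Higher only against the negative control were Mrpl9, Mrpl20, Mrpl22, Mrpl40, Mrpl43, Mrpl48 and Mrps11, and higher only against the blank control was Mrps33. Mrpl40, for example, was at 35.7, 32.6 and 35.8 CPM in the blank control, 30.2, 28.5 and 30.4 CPM in the negative control, against 39.3, 35.6 and 39.6 CPM in the Firre group, so that its Firre values overlapped with the blank control and not with the negative control.

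The control vector alone left the members close to the blank control. In the negative control against the blank control, 0 of 77 members were called by edgeR and 0 by DESeq2, while 11 had an unadjusted p under 0.05 by edgeR and 8 by DESeq2. Of all 15633 genes tested, 0.0576% were called in either direction, and 1331 had an unadjusted p under 0.05 by edgeR. The median log2 fold change of the members was -0.07, with a range of -0.31 to 0.12 and 14 of 77 above 0, where the median over all genes was 0.00. The smallest p belonged to Mrps27 (log2 fold change -0.23 ± 0.07, adjusted p = 0.334) and Mrpl40 (-0.22 ± 0.07, adjusted p = 0.334), both named here after their values were seen. Most members thus read slightly lower in the negative control than in the blank control, by less than the test could call.

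Levels of different members were compared per length, as CPM per kilobase of all annotated exons joined. On that scale the tested members had a median of 13.3 in the blank control. The highest were Mrpl54 (63.5 ± 3.17, SD, n = 3), Mrps21 (60.1 ± 4.19) and Mrpl12 (59.1 ± 6.85), which do not differ beyond their spread. The lowest were Mrps10 (3.07 ± 0.13), Mrps35 (2.60 ± 0.06) and Mrpl33 (1.24 ± 0.14). These proteins are found in the ribosome in single copy, apart from Mrpl12, which forms several copies in the stalk. The order depended on the length used. With the length of the principal transcript, an alternative chosen after the data were seen, Mrpl42 came first at 139 CPM per kilobase, Mrpl33 moved from rank 77 to rank 42 (19.0) and Mrps10 from rank 75 to rank 34 (24.4). The Spearman correlation of both orders over 77 genes was 0.788.

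The genes at the extremes of level included both strong risers and members that were not called. Mrps35, among the lowest 3, and Mrpl12, among the highest 3, rose by 0.78 and 0.60 as given before. Mrpl54 was at 46.5 to 54.8 CPM in the negative control and 52.8 to 57.6 CPM in the Firre group (log2 fold change 0.09 ± 0.07, adjusted p = 0.260). Mrps21 was at 39.1 to 44.7 and 44.3 to 48.8 CPM (0.15 ± 0.07, adjusted p = 0.0616), and it was called with only the 2 groups in the fit and without the third negative control library (0.20). Mrpl33 was at 6.94 to 8.62 and 7.19 to 9.92 CPM (0.10 ± 0.14, adjusted p = 0.561), and it overlaps Rbks on the other strand, read at 1.17 to 2.53 CPM. Mrps10 rose from 23.7 to 28.4 CPM to 29.3 to 33.1 CPM (0.23 ± 0.08, adjusted p = 0.0161), a call lost without the third Firre library (0.18), without the second negative control library (0.15) and with library totals (0.17). Across the 77 genes, which share the same libraries, level per kilobase and fold change had a correlation near 0 (Pearson r -0.08, Spearman rho -0.06).

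Other genes of mitochondrial translation, from lists chosen with earlier results of these data known, moved in the same direction. The counts below stand beside 27.5% higher and 28.4% lower over all genes tested. Of the 5 ribosomal proteins with other names, 4 were higher and 1 was not called (median 0.26). Ptcd3, a pentatricopeptide repeat protein of the small subunit, had 0.72 and Chchd1 0.50 on the log2 scale. Of 27 genes for ribosome assembly and rRNA maturation, 16 were higher and 11 not called (median 0.33). Among the higher were Mrm3, which methylates the large rRNA (0.93), and Afg3l2, a subunit of the inner-membrane protease that matures the protein of Mrpl32 (0.68). Mrpl32 itself was at 24.9, 26.0 and 27.1 CPM in the negative control and rose to 36.8, 34.0 and 40.1 CPM (0.51 ± 0.07, adjusted p = 8.84e-07). Of 16 translation factors, 13 were higher and 3 not called (median 0.52), led by the elongation factors Gfm1 (112 to 190 CPM in the mean, 0.76) and Tufm (98.3 to 155 CPM, 0.66).

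Of 20 genes that charge mitochondrial tRNAs, 14 were higher and 6 not called (median 0.29). The leading ones were Gatb (0.93) and Qrsl1 (0.90), subunits of the enzyme that completes glutaminyl-tRNA. Of 10 genes for maintenance and transcription of mitochondrial DNA, 5 were higher and 5 not called (median 0.22), with the helicase Twnk, which faces Mrpl43 at its start, at 0.44 and the elongation factor Tefm at 0.57. Of 15 genes for protein import, 11 were higher and 4 not called (median 0.36), with the motor chaperone Hspa9 at 0.61 and the processing peptidase subunit Pmpcb at 0.53.

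Of 13 regulators of mitochondrial biogenesis, 5 were higher, 4 lower and 4 not called against the negative control (median log2 fold change 0.02). Over all genes tested, 27.5% were higher and 28.4% lower. The coactivators Ppargc1a (32.5 to 84.8 CPM in the mean, log2 fold change 1.38) and Ppargc1b (0.82) and the nuclear receptors Esrra (0.77), Esrrg (0.73) and Ppara (1.20) were higher. The factors Mycn (-1.28), Myc (-0.32), Pprc1 (-0.30) and Gabpb1 (-0.33) were lower. The DNA-binding factors known for binding promoters of mitochondrial ribosomal protein genes were not called against the negative control. Nrf1 had -0.02 (adjusted p = 0.836), Gabpa -0.09 (adjusted p = 0.212) and Yy1 0.02 (adjusted p = 0.817). Against the blank control, edgeR called Yy1 higher (0.21, adjusted p = 0.00287) but not Nrf1 or Gabpa. Esrrb, the last of the 13, had 0.18 against the negative control (adjusted p = 0.344). These are levels of mRNA and give no reading of protein or of binding.

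**Figure D4:**
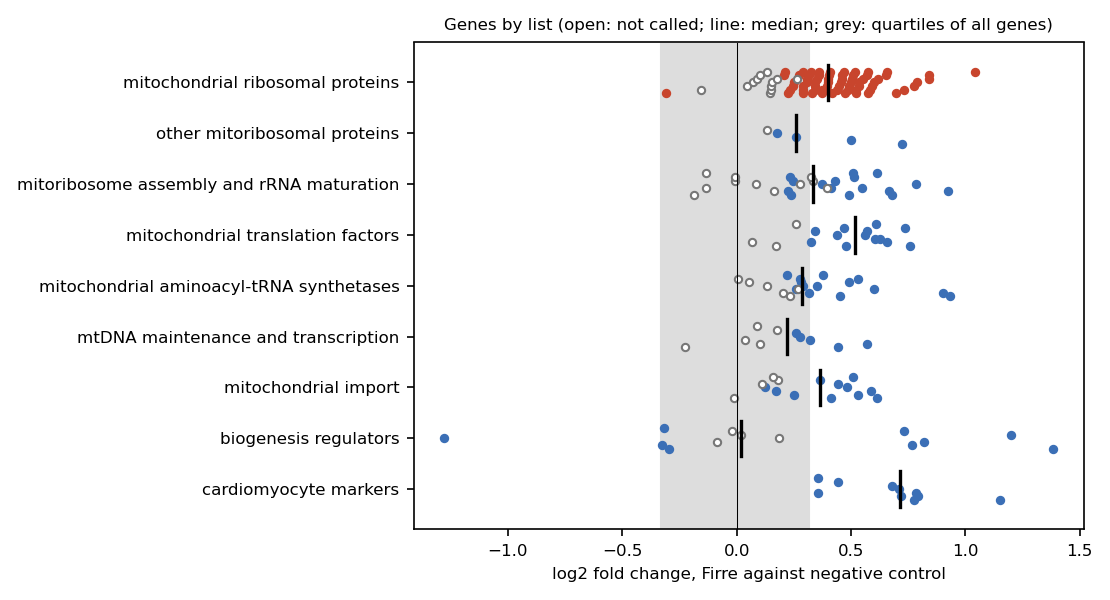
Each point is the log2 fold change of one gene, Firre against negative control, for the members (top) and for 7 lists of related genes and the cardiomyocyte markers. Filled points were called, the black line is the list's median, and the grey band spans the quartiles of all 15633 genes, from -0.33 to 0.32.

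The ribosomal RNAs that these proteins bind were also counted, and both were added after their values were seen. mt-Rnr1, the small-subunit rRNA, was at 317, 395 and 359 CPM in the negative control, against 585, 505 and 569 CPM in the Firre group (log2 fold change 0.63, adjusted p = 1.67e-04). mt-Rnr2, the large-subunit rRNA, was at 1243, 1445 and 1347 CPM and then 1204, 1064 and 1148 CPM (-0.24, adjusted p = 8.08e-04). In the blank control mt-Rnr1 was at 384, 328 and 342 CPM, below every Firre library (0.66, adjusted p = 1.25e-04 against the blank control). mt-Rnr2 was there at 1237, 1310 and 1157 CPM, which overlapped with the Firre libraries, and its value against the blank control was not called (-0.12, adjusted p = 0.0819). Per the labels rRNA was depleted before sequencing, so these are what depletion left and do not give the amount of rRNA in the cells.

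Many members begin close to a neighbour on the other strand. Of the 78 members, 33 had a protein-coding partner on the other strand whose start lay within 1000 bp, and 31 of the partners were tested. Of these, 17 were higher, 4 lower and 10 not called against the negative control (median log2 fold change 0.25). Over all 15633 genes tested, 27.5% were higher and 28.4% lower. Mrpl46 and Mrps11, both members, are partners of each other and are both counted among the 17 (0.36 and 0.27). Mrps27, whose start region is printed above, begins 81 bp from Ptcd2. Mrps27 was at 23.5, 25.4 and 24.4 CPM in the negative control, against 35.7, 32.9 and 33.4 CPM in the Firre group (0.48 ± 0.07, adjusted p = 1.87e-06), and Ptcd2 rose with 0.74 ± 0.07 (adjusted p = 8.14e-10).

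The 4 partners called lower were named after their values were seen. Mrpl51, with a log2 fold change of 0.70, begins 100 bp from Ncapd2, a condensin subunit that fell from 42.7 to 35.4 CPM in the mean (-0.27 ± 0.07, adjusted p = 0.00136). Mrpl57, which was not called at 0.18, begins 49 bp from Ska3, a kinetochore protein that fell from 5.48 to 2.93 CPM (-0.90 ± 0.16, adjusted p = 2.60e-05). Mrpl27 (0.58) faces Eme1, a subunit of a DNA-repair endonuclease (-0.67 ± 0.21, adjusted p = 0.00672), and Mrpl13 (0.40) faces Mtbp (-0.56 ± 0.09, adjusted p = 4.51e-06). In 3 of these pairs the member rose while its partner fell. The transcripts of Mrpl27 and Eme1 and of Mrpl13 and Mtbp overlap at their starts. In all, 42 members overlap another annotated gene, 36 of them one on the other strand. Some overlaps are on the same strand. Mrpl2 lies wholly inside Gm26904, and Mrps34 shares 1003 bp with Nme3. Mrps6 shares 53912 bp of its span with Gm49711 and 29152 bp with Slc5a3. How far such overlaps affected the counts of these members was not tested.

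**Figure D5:**
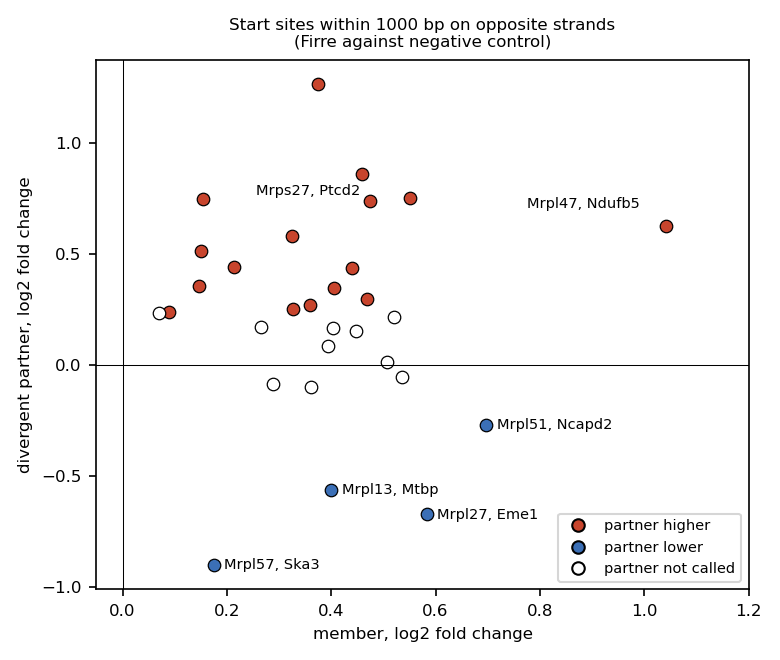
Log2 fold change of a member (x axis) against that of its protein-coding partner with a start within 1000 bp on the other strand (y axis), Firre against negative control. The 31 tested partners make 30 points, since Mrpl46 and Mrps11 form a single pair. Of the partners below 0, 4 were called lower, and the members of these 4 lie between 0.18 and 0.70. The other partners below 0 were not called.

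RefSeq start regions were found for 69 of the 78 members. The 5 letter runs searched, on both strands, were GCGCATGCG for NRF1, CCGGAAG for ETS factors such as GABP, AAGATGGCG for YY1, TCAAGGTCA for estrogen-related receptors and CACGTG for the E-box bound by Myc, and no run is contained in another. A gene with several start regions counted if any of them held the letters. The ETS letters stood in 26 members (37.7%). They stood in 9.93% of the 27025 genes with a start region and in 18.9% of 10439 other tested protein-coding genes. The NRF1 letters stood in 7 members (10.1%, against 1.95% and 3.95%), and the YY1 letters in 8 members (11.6%, against 1.64% and 3.32%). At least one of these 3 was in 36 members (52.2%), in 12.7% of all genes with a start region and in 24.4% of the other tested coding genes.

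The E-box letters stood in 5 members (7.25%, against 8.09% and 11.6%). The estrogen-related receptor letters stood in none of the 69 (0.466% of all genes with a start region and 0.335% of the other tested coding genes). Only this exact run was searched, and a run so rare can be missing from 69 genes by its rarity alone. Its absence therefore does not set the members apart from other genes. A run of letters describes the window and is not a bound site. The share called higher over all genes tested was 27.5%. Among members with the ETS letters, 16 of 25 tested were called higher, and among members without them 40 of 43. Their median log2 fold changes were 0.33 and 0.40. With the NRF1 letters 6 of 7 were higher, and without them 50 of 61. With the YY1 letters 7 of 8 were higher, and without them 49 of 60. With any of these 3 runs 25 of 35 were higher, and with none of them 31 of 33. Differences between members with and without a run were not tested. The sequences above show the range: Mrpl47, with the largest rise, has none of the 3 in its window, Mrpl42 has the YY1 letters just after its start, and Mrpl17, which fell, has both the NRF1 and the ETS letters.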

How the data were processed

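Reads were 150-bp pairs from rRNA-depleted RNA of 9 libraries, per the labels' protocols. What the authors deposited is a table of raw counts for Ensembl genes, without normalization. The submitters' processing notes list FastQC, Trimmomatic, STAR, featureCounts and the mm10 build; versions, the strand setting and any batch are not given here. Lines naming no gene held 16.3% to 17.4% of counts per library and were left out. Symbols and positions came from GENCODE M21 (55227 identifiers matched), and start regions from RefSeq (GRCm38.p6).

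All 9 libraries entered a single edgeR quasi-likelihood fit (edgeR 4.0.16, R 4.3.3; TMM, robust prior, filterByExpr with a minimum count of 10 and a minimum total of 15) with 6 residual degrees of freedom. P-values were adjusted by Benjamini-Hochberg over 15633 genes at a threshold of 0.05, and standard errors were derived from the F statistic. Replicates of a group differed by more than sampling noise (chi-square per degree of freedom 3.41 to 7.99). The edgeR fit was tested on simulated counts for the Firre and negative control groups, with a small set of genes changed in both directions. Far more genes were called in the real data, so the simulation does not test scaling or calls under so broad a change. Members, lists and motifs were chosen with earlier results of these data known. Members named were the 8 with the highest called rise and any with a called fall, the 3 highest and lowest per length, members with a set role, and 2 genes per list with the smallest p. Alternatives were DESeq2 1.42.0, other scalings, no low-count filter, only the groups compared, left-out libraries and a replicate block.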

Additional observations from a re-analysis of the deposited data

How the results depend on the processing

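With single libraries left out, the members called higher numbered 60 to 64 against the negative control and 53 to 61 against the blank control. Under the other alternatives they numbered 61 to 65 and 56 to 59. In the main fit 27.5% and 27.3% of all genes tested were higher in these comparisons. The shares of all genes under the alternatives are not given here, so these counts do not show how the members' excess over them moved. With library totals alone the members' median log2 fold change was 0.3450 against the negative control and 0.2676 against the blank control, and the median of all genes moved to -0.05. With single libraries left out, the median against the negative control ran from 0.3658 (without the second negative control library) to 0.4117. Of the 40 genes named by rule, Mrpl33 ran from -0.0515 (without the third Firre library) to 0.1926 and Mrps12 from -0.0216 (without the second negative control library) to 0.1407 with single libraries left out, neither called in any of these. Over 13 alternatives the named genes kept direction and call in 513 of their values, with 2 reversed, 2 newly called (Mrps21) and 3 no longer called (Mrps10). Same-numbered libraries did not deviate together (correlations -0.04 to 0.03), so the numbers were not taken to pair samples. With the replicate block, 64 members were higher against the negative control, with a median of 0.3992. Counts of about 70 limit the lowest member, Mrps18c, and Mrpl53 could not be read.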
